A study of Homo sapiens with 9 samples.

Results

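HT-29 cells, an established human colon adenocarcinoma line, were profiled on Affymetrix whole-transcript arrays after 24 h with rosemary extract, which holds many plant phenols, with carnosic acid, a phenolic diterpene of rosemary, or with the vehicle alone (labelled untreated). Each of the 3 groups had 3 arrays, which the series calls biological replicates. No label used here gives a dose, so whether the extract and carnosic acid were dosed alike is unknown. All values come from 1 cell line, and in bulk RNA fewer cells and less RNA per cell cannot be told apart. The genes described here handle zinc, copper and iron. They were taken as rows with 1 annotated symbol that starts SLC30A or SLC39A or that is 1 of 32 listed symbols. The rule found 17 genes of 14884 named on the array. The annotation used here named a row for 16 of the 32 symbols. The other 16, among them TFRC, FTH1, FTL, SLC40A1, SLC11A2, SLC31A1, ATP7A, ATP7B and IREB2, were not analysed here. The only row found by the zinc transporter prefixes was SLC39A12-AS1, a long noncoding RNA named for its position opposite a zinc importer gene, so the set holds iron and copper genes with 2 regulators and no zinc transporter protein.

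Cells take up iron mainly as the ferric form bound to transferrin, and membrane reductases turn ferric iron and cupric copper into the reduced forms that transporters accept. Iron that is not used is stored in ferritin, and the cargo receptor NCOA4 carries ferritin to the lysosome, where iron is released. Copper is handed by small chaperones to pumps, to superoxide dismutase and to cytochrome oxidase. Excess zinc activates the transcription factor MTF1, which binds metal response elements in the promoters of metallothionein genes.

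Expression was read as the RMA signal the authors deposited, in log2 units, and a difference of 1 is a doubling of signal. Genes were compared by limma over 11163 genes after the dimmest 25% by mean (under 4.50) were left out, and a gene is called at a Benjamini-Hochberg adjusted p under 0.05. Of the 17 genes 14 were tested and 3, CP, FTMT and SLC39A12-AS1, were too dim. With rosemary extract 5 of the 14 were called higher and 2 lower, against 21.8% higher and 16.3% lower (38.1% in all) of the genes tested. With carnosic acid 3 were called higher and 2 lower, against 12.9% and 6.12% (19% in all). Between the extract and carnosic acid 2 were called higher and 1 lower, against 8.24% and 9.07% (17.3% in all). The moderated F test for any group difference called 6 of the 14, against 35.6% of all genes. The arrays of the groups compared did not overlap for 9 of the 14 with the extract (46.7% of all genes), 4 with carnosic acid (32.8%) and 7 between the treatments (31.8%). The median log2 difference of the 14 genes was 0.03, 0.05 and 0.02 in these 3 comparisons, beside -0.02, -0.01 and 0.01 for all genes tested. These counts include STEAP1, which passed the dim filter only through its treated arrays. Without it, of 13 genes 4 were higher and 2 lower with extract, 2 higher and 2 lower with carnosic acid, and 1 higher and 1 lower between the treatments, and the medians were -0.0014, 0.04 and -0.04. Both treatments share the same untreated arrays, so their differences from untreated are not independent.

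The cells carried epithelial markers. EPCAM averaged 11.17 with extract, 11.15 with carnosic acid and 11.36 untreated, and KRT18 12.11, 12.28 and 12.59. Others on the list differed more. CEACAM5 was higher by 2.82 with extract and 2.22 with carnosic acid, CEACAM6 by 1.29 and 1.02, and KRT20 by 0.77 and 0.88, while VIL1 differed by -1.29 and -0.35 (log2, all called). Rows were named for 10 of 12 listed colon epithelial markers and all 10 passed the dim limit. Of these 3 were called higher and 3 lower with the extract, against 21.8% and 16.3% of all genes tested. With carnosic acid 4 were called higher and 3 lower, against 12.9% and 6.12%. Of 8 hepatocyte markers 7 had a row and 3 passed the limit. By limma 0 of these 3 were called with either treatment, with 0 for the extract and 1 for carnosic acid at an unadjusted p under 0.05. Of 7 leukocyte markers 3 had a row and passed, with CD68, also a lysosomal protein gene, at 9.83, 9.18 and 7.94 in the same order and LYZ at 12.17, 12.35 and 12.43. Of these 3 markers, 1 was called higher and 1 lower with extract, and 1 higher and 0 lower with carnosic acid, beside the same shares of all genes. Of 7 fibroblast markers 3 had a row. DCN and LUM were too dim to test, and VIM averaged 5.77 with extract, 5.63 with carnosic acid and 5.98 untreated, not called with either. The part of these markers in the results was not tested. In the deposited values, 8.91% of the tested genes had the same value on at least 4 of the 9 arrays. Among the metal genes this held for ATOX1 (4 arrays), TFR2 (5 arrays) and the dim CP (5 arrays). Ties within a group narrow the spread between replicates, and ties across groups make those groups overlap. ATOX1 shared 7.06 between carnosic acid and untreated arrays, and TFR2 shared 5.27 among arrays of all 3 groups. A value shared by at least 2 arrays was seen in 42.35% of the tested genes. Among the called metal genes these were CCS (3 arrays) and NCOA4 (2 arrays). The cause was not tested.

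Among the 14 tested genes, the largest log2 differences with the extract were those of STEAP1 (2.18) and STEAP4 (-0.80), followed by MTF1 (0.74). STEAP1, STEAP4 and CYBRD1 are listed as metalloreductases and did not move together, and CYBRD1 was not called with the extract (-0.37). STEAP1 encodes a membrane haem protein that lacks the NADPH-binding reductase domain of its relatives. It was at 5.93, 5.85 and 5.81 with rosemary extract, at 5.09, 5.15 and 5.54 with carnosic acid, and at 3.70, 3.28 and 4.08 in untreated cells. All treated arrays were above the dim limit of 4.50 and all untreated arrays below it, with no overlap between any groups. STEAP1 therefore entered the test through its treated arrays, so it had to differ once it passed the filter, and its calls describe it rather than support anything. The log2 difference from untreated was 2.18 ± 0.18 (SE, n = 3 per group) with extract (limma adjusted p = 2.02e-06) and 1.58 ± 0.18 with carnosic acid (adjusted p = 0.000128). The limit is a rank among gene means and not a measured background, and whether the untreated level was above background was not tested. The treated means lay above the limit by 1.37 with extract and 0.76 with carnosic acid. These are the same values that the filter used, so they are description only. The extract exceeded carnosic acid by 0.60 ± 0.18 (adjusted p = 0.0378). That last call was lost without untreated array 1 (0.0572), without rosemary extract array 1 (0.120), 2 (0.101) or 3 (0.0675) and without carnosic acid array 1 (0.122) or 2 (0.116). It was also lost with no filter on dim genes (0.0558) and with all rows of the array tested (0.132).

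STEAP4, a metalloreductase of the same family that reduces iron and copper, went the other way. It was at 6.51, 6.28 and 6.09 with extract, at 6.67, 6.72 and 6.75 with carnosic acid, and at 6.95, 7.09 and 7.22 in untreated cells. The 3 groups did not overlap, with the extract lowest and the untreated cells highest. It fell by 0.80 ± 0.11 on the log2 scale with extract (SE, n = 3 per group, limma adjusted p = 0.000123), a 1.74-fold lower signal. With carnosic acid it fell by 0.38 ± 0.11 (adjusted p = 0.0329), and the extract was lower than carnosic acid by a log2 difference of -0.42 ± 0.11 (adjusted p = 0.0202). The carnosic acid call was lost without untreated array 2 (adjusted p = 0.0824) or 3 (0.104), rosemary extract array 2 (0.0508) or carnosic acid array 1 (0.107), 2 (0.0726) or 3 (0.0598). It was also lost under median centring (0.0588) and with all rows of the array tested (0.0835). The call between the treatments was lost without rosemary extract array 2 (0.0697) or 3 (0.0641) and without carnosic acid array 2 (0.0570) or 3 (0.0708).

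CYBRD1, the duodenal ferric reductase, was at 4.99, 5.19 and 5.23 with extract, at 5.08, 5.28 and 4.77 with carnosic acid, and at 5.67, 5.58 and 5.26 in untreated cells. The extract arrays lay below every untreated array by a small margin, and the carnosic acid arrays overlapped with the lowest untreated array. It fell by 0.46 ± 0.14 with carnosic acid (log2, SE, n = 3 per group, limma adjusted p = 0.0459), and its difference with the extract was -0.37 ± 0.14 (adjusted p = 0.0689). The carnosic acid call was kept in 5 of 17 alternatives, and it was lost without untreated array 1 (adjusted p = 0.155) or 2 (0.132), without rosemary extract array 1 (0.0546), 2 (0.0658) or 3 (0.0578), and without carnosic acid array 1 (0.104) or 3 (0.152). The extract difference became a call without untreated array 3 (0.0247) or carnosic acid array 3 (0.0411).

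**Figure D1:**
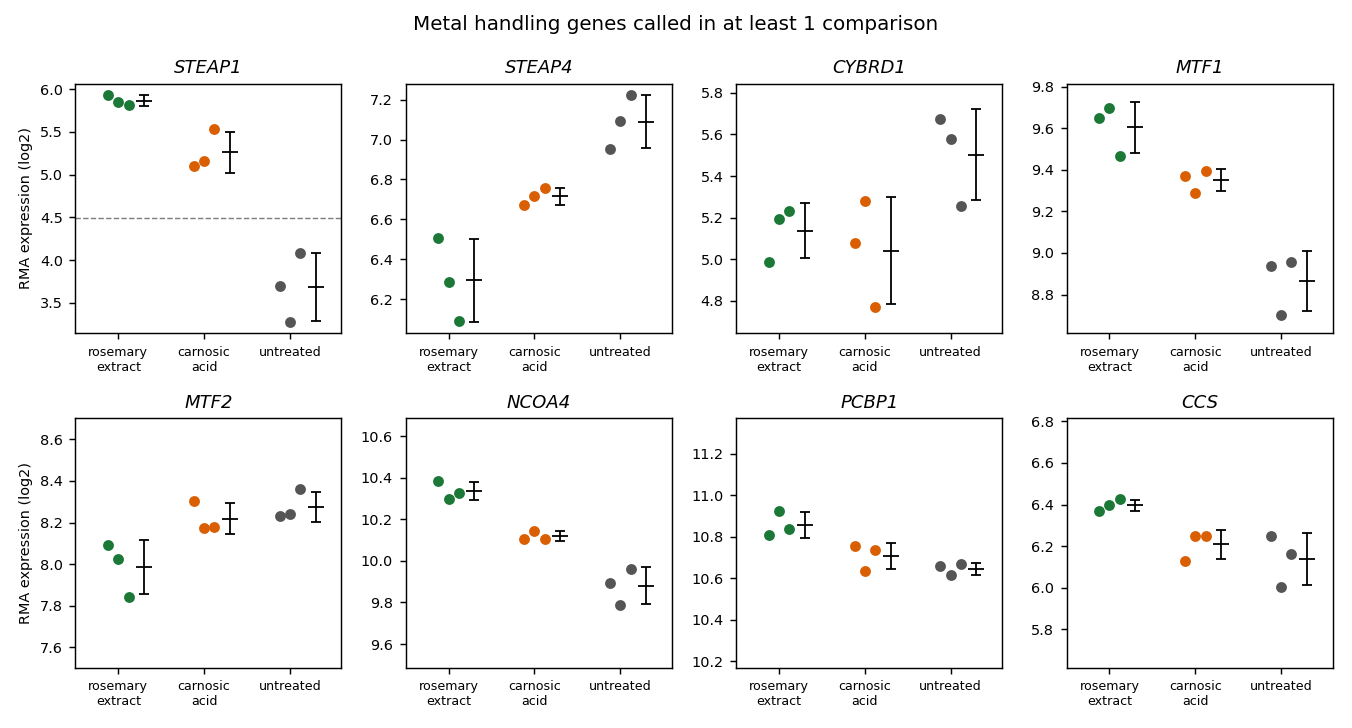
RMA expression (log2) of the 8 metal handling genes called in at least 1 comparison, with 1 point per array and, beside it, the group mean with its SD (n = 3); panels have their own vertical ranges that do not start at 0, and the dashed line marks the dim limit of 4.50. STEAP1, MTF1 and NCOA4 stood highest with rosemary extract and lowest in untreated cells, and STEAP4 lay in the opposite order, with no overlap between groups in these 4 genes.

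The promoters of 6 genes are shown because they carry the largest opposite shifts (STEAP1 and STEAP4), matches to an element among the called genes that rose (NCOA4, CCS and PCBP1, while CYBRD1 and MTF2, called lower, also hold TGCGCNC and are not printed), or the best known metal response elements (MT2A, a metallothionein gene, for comparison). Each is the 250 bases before the RefSeq start, GRCh38.p14, read 5′ to 3′ along the gene's strand. Capitals mark matches on either strand to the metal response element core, searched as TGCACNC and TGCGCNC, and to the antioxidant response element core bound by NRF2, searched as TGACNNNGC.
STEAP1, plus strand, chr7:90154219-90154468: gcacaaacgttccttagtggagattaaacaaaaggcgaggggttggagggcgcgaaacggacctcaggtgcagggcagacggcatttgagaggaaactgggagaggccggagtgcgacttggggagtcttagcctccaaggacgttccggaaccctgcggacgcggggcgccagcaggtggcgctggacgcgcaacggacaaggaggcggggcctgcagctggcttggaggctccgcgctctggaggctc
STEAP4, minus strand, chr7:88306895-88307144: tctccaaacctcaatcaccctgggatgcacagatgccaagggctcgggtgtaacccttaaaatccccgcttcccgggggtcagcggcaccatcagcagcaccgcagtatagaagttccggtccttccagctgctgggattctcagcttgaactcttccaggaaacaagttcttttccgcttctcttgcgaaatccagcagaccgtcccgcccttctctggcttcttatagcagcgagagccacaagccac
NCOA4, minus strand, chr10:46030624-46030873: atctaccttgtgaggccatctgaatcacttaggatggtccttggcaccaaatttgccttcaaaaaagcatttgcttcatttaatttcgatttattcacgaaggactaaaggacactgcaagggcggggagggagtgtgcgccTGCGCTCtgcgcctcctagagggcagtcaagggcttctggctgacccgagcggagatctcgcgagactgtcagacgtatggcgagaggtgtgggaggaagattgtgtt
CCS, plus strand, chr11:66592935-66593184: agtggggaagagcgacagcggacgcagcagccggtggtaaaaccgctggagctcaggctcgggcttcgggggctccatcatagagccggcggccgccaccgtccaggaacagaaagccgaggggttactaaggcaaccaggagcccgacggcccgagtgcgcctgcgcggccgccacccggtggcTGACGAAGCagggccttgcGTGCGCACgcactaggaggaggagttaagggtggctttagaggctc
PCBP1, plus strand, chr2:70087227-70087476: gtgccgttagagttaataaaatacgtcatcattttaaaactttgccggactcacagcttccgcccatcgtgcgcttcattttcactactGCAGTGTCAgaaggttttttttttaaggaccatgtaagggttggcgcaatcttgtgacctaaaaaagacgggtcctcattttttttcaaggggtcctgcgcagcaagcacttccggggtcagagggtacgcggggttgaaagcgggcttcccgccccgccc
MT2A, plus strand, chr16:56608334-56608583: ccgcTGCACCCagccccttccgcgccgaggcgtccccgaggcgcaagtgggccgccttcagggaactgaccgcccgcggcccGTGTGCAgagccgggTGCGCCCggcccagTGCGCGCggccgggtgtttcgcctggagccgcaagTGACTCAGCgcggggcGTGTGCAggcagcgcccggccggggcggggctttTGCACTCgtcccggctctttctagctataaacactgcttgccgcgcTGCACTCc

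MT2A held 5 matches to TGCACNC, 2 to TGCGCNC and 1 to TGACNNNGC in this window. NCOA4 held 1 match to TGCGCNC, which began 108 bases before the start. CCS held 1 match to TGACNNNGC, 65 bases before the start, and 2 overlapping matches to TGCGCNC at 46 and 45 bases, 1 on each strand. PCBP1 held 1 match to TGACNNNGC at 161 bases. STEAP1 and MTF1, both called higher with each treatment, held 0 matches to each element, as did STEAP4. The MTF1 promoter is not printed. Promoters were found for 14 of the 17 genes (none for CP, TFR2 and SLC39A12-AS1). These are not the 14 tested genes, since they include FTMT, which was too dim to test, and lack TFR2. The shares given for tested genes therefore do not cover FTMT. TGCACNC was in 0 of these 14 windows and in 9.73% of the windows of 27305 genes (9.56% for tested genes). TGCGCNC was in 7 of 14 (ATOX1, CCS, COX17, CYBRD1, FTMT, MTF2 and NCOA4), against 16.9% of all windows and 25.04% of those of tested genes. TGACNNNGC was in 3 of 14 (CCS, FTMT and PCBP1), against 11.03% and 12.1%. A match is a run of letters and not a shown binding site, and genes with matches were among those called and those not called.

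The ferroxidases oxidise ferrous iron so that transferrin can bind it. HEPH, the membrane ferroxidase of the gut, was at 5.54, 5.92 and 5.54 with extract, at 6.16, 5.95 and 5.92 with carnosic acid, and at 6.41, 5.83 and 5.92 in untreated cells. The groups overlapped, and neither difference passed (-0.38 ± 0.16 with extract, adjusted p = 0.0763, and -0.05 ± 0.16 with carnosic acid, adjusted p = 0.874, log2, SE, limma). The extract difference became a call without untreated array 2 (adjusted p = 0.0453) or rosemary extract array 2 (0.0362). CP, the plasma ferroxidase made mainly by the liver, stayed between 3.26 and 3.39 on all 9 arrays, under the dim limit in every group.

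On the transferrin side, neither named gene was called. TFR2, the second transferrin receptor and a gene mainly of hepatocytes and erythroid cells, was between 5.17 and 5.35 on the 9 arrays. Its log2 differences were -0.03 ± 0.08 with extract (SE, limma adjusted p = 0.821) and 0.04 ± 0.08 with carnosic acid (adjusted p = 0.772). HFE, the haemochromatosis protein that binds transferrin receptor 1, was at 5.93, 6.21 and 6.11 with extract, at 6.16, 6.27 and 6.33 with carnosic acid, and at 6.48, 6.13 and 6.32 in untreated cells, with overlap among all groups. Its difference with extract was -0.23 ± 0.11 (adjusted p = 0.129), with a 95% interval of -0.47 to 0.01, and it became a call without untreated array 2 (adjusted p = 0.0482). With carnosic acid it was -0.06 ± 0.11 (adjusted p = 0.755).

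NCOA4, the receptor that delivers ferritin to the lysosome, was at 10.38, 10.30 and 10.33 with extract, at 10.10, 10.15 and 10.10 with carnosic acid, and at 9.89, 9.79 and 9.96 in untreated cells. The 3 groups were fully separated, in the order extract, carnosic acid, untreated. NCOA4 rose by 0.46 ± 0.05 with extract (log2, SE, n = 3 per group, limma adjusted p = 3.46e-05), or 1.37-fold, and by 0.24 ± 0.05 with carnosic acid (adjusted p = 0.00909), or 1.18-fold. Both calls were made in all 18 alternatives. The extract exceeded carnosic acid by 0.22 ± 0.05 (adjusted p = 0.0146), a call lost without rosemary extract array 1 (adjusted p = 0.0690) or carnosic acid array 3 (0.0505), without the variance trend (0.0527) and with all rows of the array tested (0.0590). FTMT, the mitochondrial ferritin, lay between 3.32 and 3.60 on all arrays, under the dim limit. The cytosolic ferritin subunits were not analysed here.

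PCBP1 and PCBP2 are RNA-binding proteins that also deliver iron to ferritin. PCBP1 was at 10.81, 10.93 and 10.84 with extract, at 10.75, 10.64 and 10.73 with carnosic acid, and at 10.66, 10.61 and 10.67 in untreated cells. The extract arrays stood above all others, and the carnosic acid arrays overlapped with untreated ones. PCBP1 rose by 0.21 ± 0.05 with extract (log2, SE, n = 3 per group, limma adjusted p = 0.00517), and the call was made in all 18 alternatives. Its difference with carnosic acid was 0.06 ± 0.05 (adjusted p = 0.423). The extract minus carnosic acid difference of 0.15 ± 0.05 had an adjusted p = 0.0622. PCBP2 lay between 8.58 and 9.02 with overlap among the groups, and its differences were -0.0014 ± 0.095 with extract and 0.09 ± 0.09 with carnosic acid, neither called (adjusted p = 0.993 and adjusted p = 0.563 by limma). The 2 genes are close paralogs, and whether their probes share signal was not tested.

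The copper chaperones changed little. CCS, which loads copper into superoxide dismutase 1, was at 6.37, 6.40 and 6.42 with extract, at 6.13, 6.25 and 6.25 with carnosic acid, and at 6.25, 6.005 and 6.16 in untreated cells. The extract arrays lay above all others, while the carnosic acid and untreated arrays overlapped. CCS rose by 0.26 ± 0.09 with extract (log2, SE, n = 3 per group, limma adjusted p = 0.0322), and its difference with carnosic acid was 0.07 ± 0.09 (adjusted p = 0.616). The extract call was lost without untreated array 2 (adjusted p = 0.112) or 3 (0.0543) and without rosemary extract array 1 (0.0637), 2 (0.0792) or 3 (0.0791). It was also lost with all rows of the array tested (0.0604). ATOX1, which hands copper to the copper pumps, was between 6.91 and 7.26, and COX17, which carries copper towards cytochrome oxidase, between 5.77 and 6.08. Their differences from untreated ran from -0.03 to 0.11 over both treatments and none was called (limma adjusted p from 0.434 to 0.860).

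**Figure D2:**
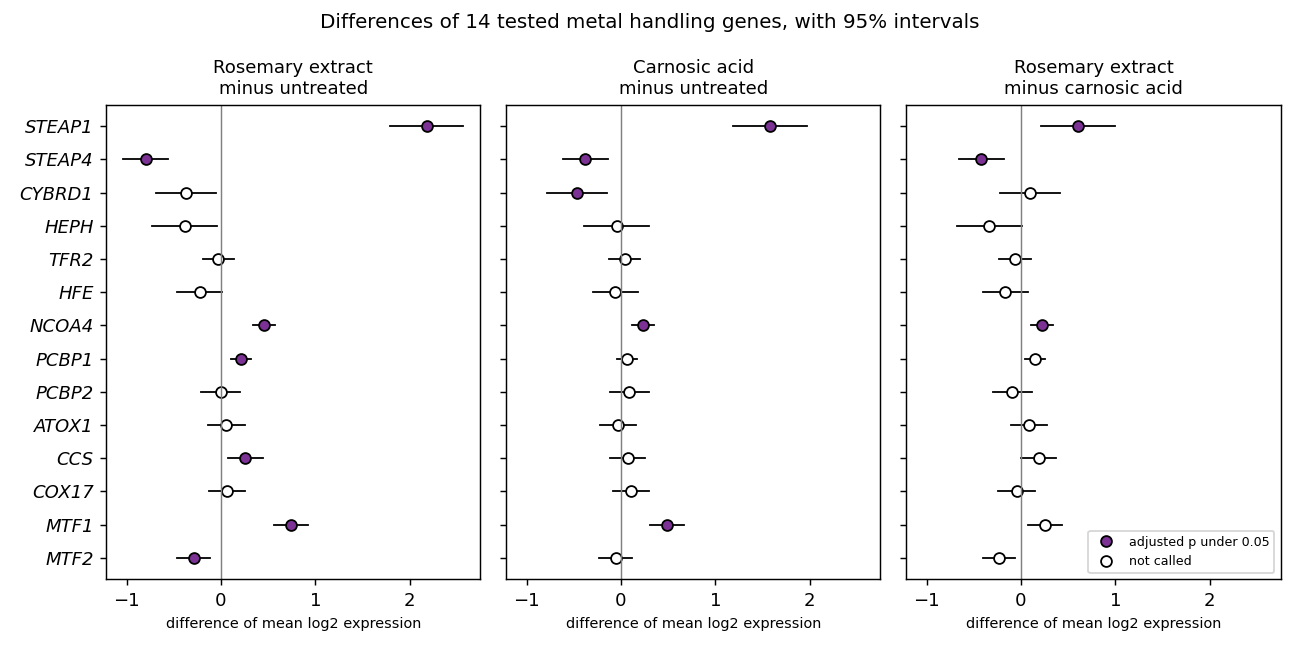
Differences of mean log2 expression for the 14 tested metal handling genes (rows) in the 3 comparisons (panels), each with its 95% interval from the limma fit; filled points were called at an adjusted p under 0.05. STEAP1 lies farthest to the right (2.18 with extract, 1.58 with carnosic acid) and STEAP4 farthest to the left with the extract (-0.80).

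MTF1, the zinc-sensing transcription factor, was at 9.65, 9.70 and 9.47 with extract, at 9.37, 9.29 and 9.39 with carnosic acid, and at 8.94, 8.70 and 8.96 in untreated cells. All treated arrays stood above the untreated ones, and the extract arrays above those of carnosic acid. MTF1 rose by 0.74 ± 0.08 with extract (log2, SE, n = 3 per group, limma adjusted p = 2.17e-05), or 1.67-fold, and by 0.49 ± 0.08 with carnosic acid (adjusted p = 0.00166), or 1.40-fold. Both calls were made in all 18 alternatives, over which the extract difference ran from 0.66 to 0.81 and the carnosic acid difference from 0.40 to 0.53. The treatments differed by 0.25 ± 0.08 without passing (adjusted p = 0.0532, 95% interval 0.08 to 0.43). That difference became a call without untreated array 2 (adjusted p = 0.0255) or rosemary extract array 3 (0.0200), under cyclic loess (0.0246), with the dimmer 50% left out (0.0353) and in the 6 arrays compared (0.0410).

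MTF2, named for binding metal response elements and known as a partner of the polycomb repressive complex, was at 8.09, 8.03 and 7.84 with extract, at 8.30, 8.17 and 8.18 with carnosic acid, and at 8.23, 8.24 and 8.36 in untreated cells. The extract arrays lay below all others, and the carnosic acid and untreated arrays overlapped. MTF2 fell by 0.29 ± 0.08 with extract (log2, SE, n = 3 per group, limma adjusted p = 0.0113), in all 18 alternatives. Its difference with carnosic acid was -0.06 ± 0.08 (adjusted p = 0.656), and the extract minus carnosic acid difference was -0.23 ± 0.08 (adjusted p = 0.0640), which passed under cyclic loess (0.0456) and with the dimmer 50% left out (0.0459). SLC39A12-AS1 lay between 3.52 and 3.84, under the dim limit in all groups.

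**Figure D3:**
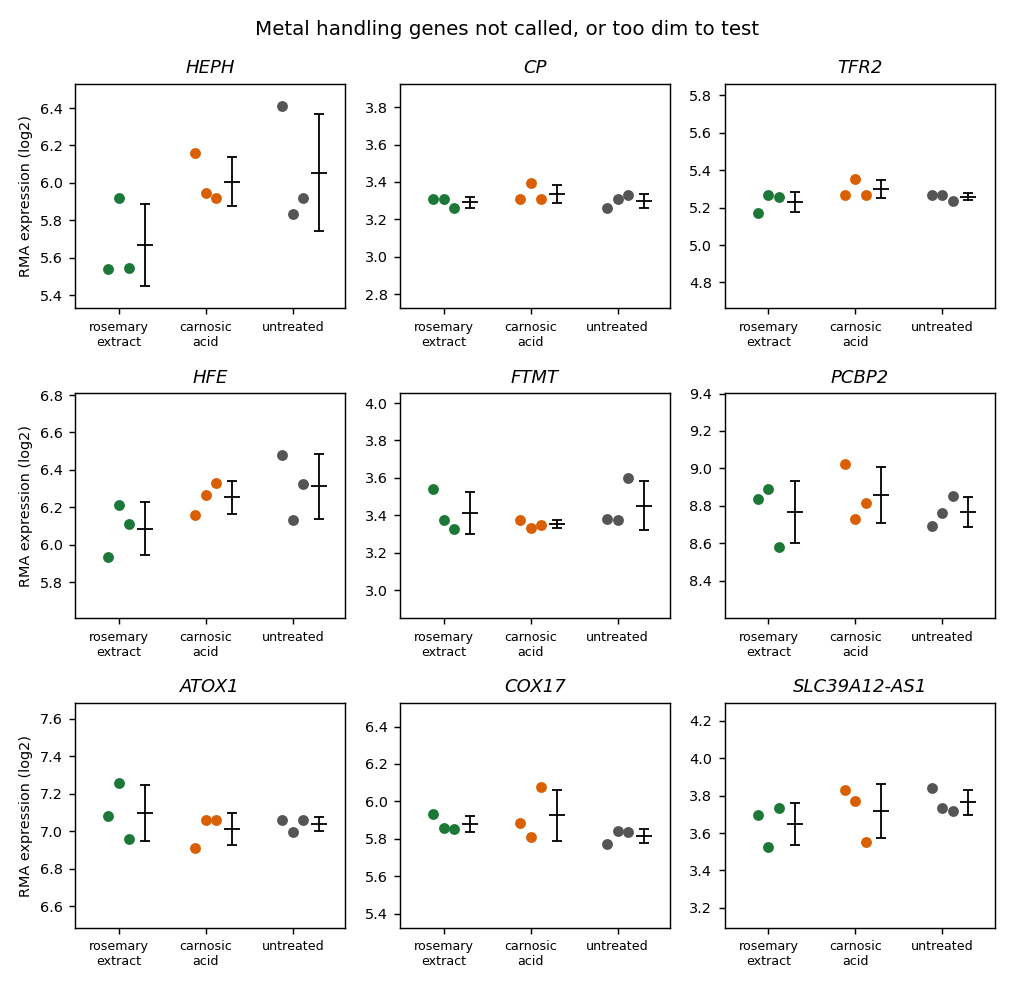
RMA expression (log2) of the 9 metal handling genes that were not called or were too dim to test, drawn as points per array with the group mean and its SD (n = 3) beside them; each panel has its own vertical range that does not start at 0. In all 9 panels except COX17, rosemary extract arrays overlap with untreated ones, and CP, FTMT and SLC39A12-AS1 stay under 4.50.

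Other genes of metal biology were described from 6 lists with 98 genes, chosen by function with earlier results of these data known. Metallothioneins bind zinc and copper in the cytosol and are the classic targets of MTF1. Of 8 tested, 6 were called higher with extract and 0 lower, and 3 higher and 1 lower with carnosic acid. The shares of all genes tested were 21.8% higher and 16.3% lower with extract, and 12.9% and 6.12% with carnosic acid. MT1G was at 11.21, 11.32 and 11.44 with extract, at 5.55, 5.65 and 5.77 with carnosic acid, and at 5.46, 5.14 and 5.09 in untreated cells. The extract arrays stood far above both other groups, and the carnosic acid arrays just above the untreated ones. MT2A was higher by 1.81 with extract (adjusted p = 8.86e-08) and by 0.34 with carnosic acid (adjusted p = 0.0258). The carnosic acid call of MT2A was lost when untreated array 2 (0.0872) or 3 (0.0842) or carnosic acid array 1 (0.0891) or 2 (0.0734) was dropped, and under cyclic loess (0.0606). MT1X differed by 3.22 (adjusted p = 8.70e-09) and by 0.07 (adjusted p = 0.713). MT1H, which passed the dim filter only through the extract arrays, averaged 8.58 with extract, while its means of 3.21 with carnosic acid and 3.31 in untreated cells lay below that limit. The extract was called higher than carnosic acid in 6 of the 8 and lower in 0, against 8.24% and 9.07% of all genes tested. MT1H is among the 6 called higher with extract in both comparisons. It had to differ once it passed the filter, so its calls describe it rather than support anything. The carnosic acid counts were fragile: the higher count was 0 without untreated array 2 and 1 without untreated array 3, carnosic acid array 1 or carnosic acid array 2. The lower count was 0 without untreated array 2, untreated array 3 or carnosic acid array 3. Metallothionein genes are near-identical, so single members are uncertain.

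Haem holds much of a cell's functional iron. Of 11 tested haem genes 4 were called higher and 1 lower with each treatment. Of all genes tested, 21.8% were called higher and 16.3% lower with extract, and 12.9% and 6.12% with carnosic acid. The median log2 difference of the haem genes was 0.09 with extract and 0.10 with carnosic acid, beside -0.02 and -0.01 for all genes. HMOX1, the enzyme that opens haem and frees its iron, was at 10.29, 10.40 and 10.15 with extract, at 8.36, 8.35 and 8.15 with carnosic acid, and at 7.18, 7.40 and 7.37 in untreated cells. FECH, ferrochelatase, which inserts iron into haem, was at 8.11, 8.21 and 8.07 with extract, at 8.22, 8.08 and 8.07 with carnosic acid, and at 7.07, 7.16 and 7.13 in untreated cells. Unlike HMOX1, which stepped between all 3 groups, FECH stood about equally above untreated cells in both, by 1.01 ± 0.07 with extract and 1.002 ± 0.07 with carnosic acid (SE, limma adjusted p = 5.76e-07 and adjusted p = 5.54e-06). Its difference between the treatments was 0.0044, with a 95% interval of -0.15 to 0.16. BLVRB, a biliverdin reductase, rose by 1.28 with extract and 0.62 with carnosic acid (limma adjusted p = 4.26e-07 and adjusted p = 0.000461). The lower count with extract was 2 without untreated array 1, rosemary extract array 1, or carnosic acid array 2 or 3. That with carnosic acid was 0 without untreated array 2 or carnosic acid array 1. Between the treatments 2 haem genes were called higher with extract and 1 lower, against 8.24% and 9.07% of all genes. That lower count ranged from 0 to 2 when 1 array was left out. It was 0 without any 1 of the extract arrays or without carnosic acid array 3, and 2 without untreated array 1.

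Of 17 tested iron-sulfur cluster assembly genes, 10 were not called with extract and 15 with carnosic acid. With extract 3 were called higher and 4 lower, near the 38.1% of all genes tested that were called. With carnosic acid 0 were called higher and 2 lower, where 12.9% and 6.12% of all genes were (19% in all). In that comparison 3 had an unadjusted p under 0.05 (limma). The scaffold ISCU rose by 0.41 ± 0.08 with extract (log2, SE, adjusted p = 0.00154), and the mitochondrial chaperone HSPA9 by 0.29 ± 0.03 (adjusted p = 4.12e-05). With carnosic acid their differences were 0.04 and -0.01, neither called (limma adjusted p = 0.790 and adjusted p = 0.890). Against carnosic acid the extract was higher in 2 genes, ISCU and HSPA9, and lower in 0 (limma, with 3 at an unadjusted p under 0.05). The shares of all genes there were 8.24% and 9.07%. BOLA3, a factor for late cluster transfer, fell by 0.35 with extract and by 0.38 with carnosic acid (adjusted p = 0.00218 and adjusted p = 0.00391). The lower count was 2 with extract without rosemary extract array 2, and 1 with carnosic acid without untreated array 2 or carnosic acid array 2.

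Among iron regulators, 4 of 9 tested were called higher with extract and 0 lower, and 2 higher and 0 lower with carnosic acid. Of all genes tested, 21.8% were called higher and 16.3% lower with extract, and 12.9% and 6.12% with carnosic acid. FURIN, the protease that matures hepcidin, rose by 0.81 ± 0.06 with extract and 0.64 ± 0.06 with carnosic acid (log2, SE, limma adjusted p = 1.26e-06 and adjusted p = 5.48e-05). LCN2, lipocalin 2, which binds iron-carrying siderophores, was at 9.13, 9.28 and 9.27 with extract, at 8.14, 8.01 and 8.23 with carnosic acid, and at 8.13, 8.29 and 8.43 in untreated cells. LCN2 stood apart with the extract, while the other groups overlapped, and it exceeded carnosic acid by 1.10 ± 0.09 (adjusted p = 6.02e-06). PRNP, the prion protein, which binds copper and has been linked to iron uptake, rose by 0.54 with extract (adjusted p = 1.09e-05). Its difference with carnosic acid was 0.09 (adjusted p = 0.285). LCN2 and PRNP were the 2 of 9 called between the treatments, where 17.3% of all genes tested were called. Without carnosic acid array 2 the lower count with carnosic acid was 1.

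In the copper list, 3 of 14 tested genes were called higher and 2 lower with extract, and 2 higher and 0 lower with carnosic acid. The called shares of all genes tested were 21.8% higher and 16.3% lower with extract, and 12.9% and 6.12% with carnosic acid. The lower genes with extract were SCO1 and COX11, which help to place copper in cytochrome oxidase. Other genes of that step were not called with extract, with log2 differences of 0.06 for SCO2, -0.09 for COX19, 0.20 for COA6 and 0.06 for COX17. SCO1 was at 8.42, 8.15 and 8.34 with extract, at 8.57, 8.60 and 8.71 with carnosic acid, and at 8.86, 8.71 and 8.84 in untreated cells, a fall by 0.50 ± 0.08 with extract (log2, SE, limma adjusted p = 0.000361). COX11 fell by 0.52 ± 0.10 with extract (adjusted p = 0.00130), and with carnosic acid its difference of -0.30 ± 0.10 did not pass (adjusted p = 0.0506). COX11 passed there without rosemary extract array 1 (adjusted p = 0.0173) or 3 (0.0391), under cyclic loess (0.0304), with the dimmer 50% left out (0.0346) and in the 6 arrays compared (0.0248), as it did between the treatments without rosemary extract array 1 (0.0261). AOC1, a copper amine oxidase, was higher with carnosic acid by 0.28 (adjusted p = 0.0411), and its extract difference was -0.18 (adjusted p = 0.123). The AOC1 call was lost without untreated array 2 (adjusted p = 0.125) or 3 (0.0729), rosemary extract array 1 (0.0572) or carnosic acid array 1 (0.144), 2 (0.0548) or 3 (0.0672). SCO1 and AOC1 were called lower with extract than with carnosic acid (2 of 14, against 9.07% of all genes tested). The SCO1 call there was lost without rosemary extract array 2 (0.0671) or carnosic acid array 3 (0.0628). The higher count with extract was 0 without untreated array 1 or rosemary extract array 1. With carnosic acid it was 1 without untreated array 1 or 3, rosemary extract array 1 or carnosic acid array 2, and 0 without untreated array 2 or carnosic acid array 1 or 3.

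Of 7 tested genes for other divalent metals, 4 were called higher and 1 lower with extract, and 3 higher and 0 lower with carnosic acid. The called shares of all genes were 21.8% higher and 16.3% lower with extract, and 12.9% and 6.12% with carnosic acid. TMEM165, a Golgi manganese and calcium transporter, rose by 0.55 with extract and 0.38 with carnosic acid (limma adjusted p = 0.00180 and adjusted p = 0.0324). MCOLN1, the lysosomal cation channel that can pass iron and zinc, rose by 0.40 and 0.24 (adjusted p = 0.000854 and adjusted p = 0.0407). CNNM3, linked to magnesium handling, fell by 0.59 with extract (adjusted p = 0.000787), and its carnosic acid difference of -0.32 did not pass (adjusted p = 0.0518). It passed in 4 of 18 alternatives, which were without carnosic acid array 3 (0.00925), under cyclic loess (0.0254), with the dimmer 50% left out (0.0349) and with replicate number as a block (0.0399). The carnosic acid call of TMEM165 was lost without untreated array 1 (0.0572) or 2 (0.102) or carnosic acid array 1 (0.126) or 2 (0.0677). That of MCOLN1 was lost without untreated array 2 (0.0690) or 3 (0.113), rosemary extract array 1 (0.0518) or carnosic acid array 1 (0.0679), 2 (0.117) or 3 (0.0796). The higher count with extract was 2 without untreated array 3. With carnosic acid it was 1 without untreated array 2 or any 1 of the carnosic acid arrays. Between the treatments limma called 0 of the 7, against 17.3% of all genes, with 2 at an unadjusted p under 0.05.

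**Figure D4:**
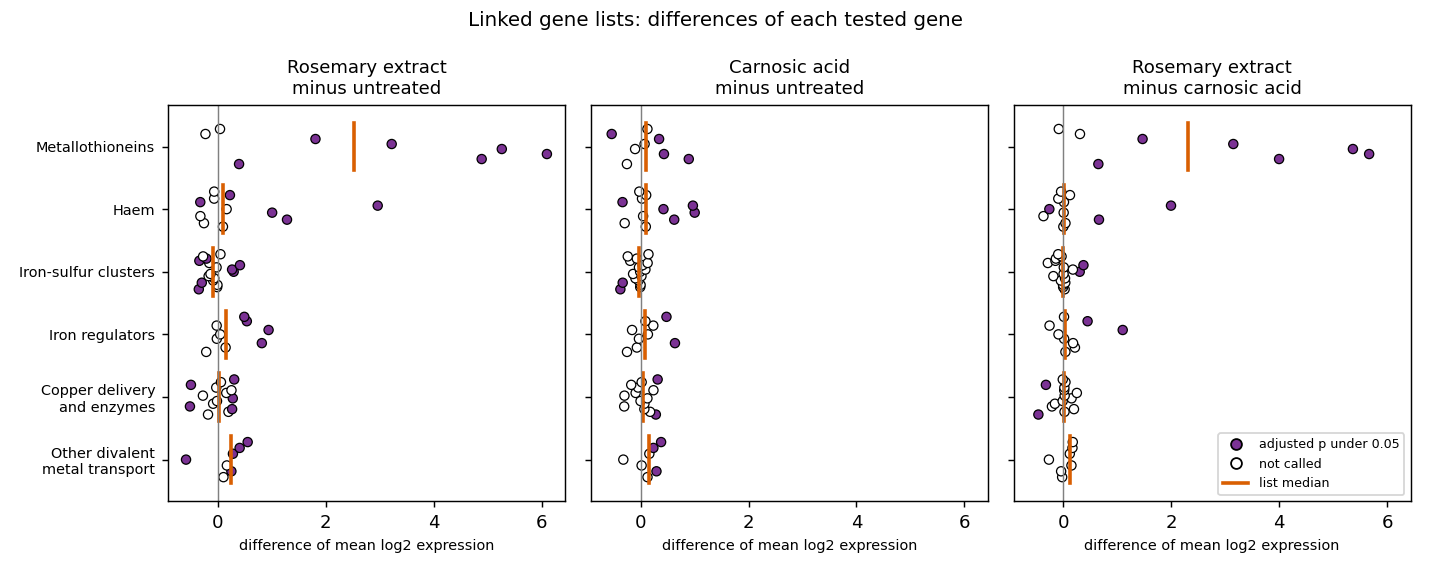
Differences of mean log2 expression for each tested gene of the 6 linked lists (rows) in the 3 comparisons (panels); filled points were called at an adjusted p under 0.05 and the orange bar is the list's median. The metallothionein median lies at 2.52 with extract and at 0.10 with carnosic acid, and the other 5 medians lie between -0.09 and 0.25 in every panel. The metallothionein medians include MT1H, which passed the dim filter only through the extract arrays.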

How the data were processed

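RNA of 9 HT-29 cultures was measured on Affymetrix arrays. The deposited log2 values were made by the authors with RMA in the oligo package, per the labels (no version is stated there). That the scale is log2 was read off the range of the numbers. The 53617 rows had array medians between 4.82 and 4.90. RMA compresses large changes and gives no detection call, and precision is limited by having 3 arrays in a group.

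Gene symbols came from the platform's older annotation, updated by Entrez identifier (all 16098 matched, 0 symbols changed). It left 37519 rows unnamed. The brightest row of each of 14884 genes was kept, all metal genes had 1 row, and the lowest 25% by mean (3721 genes) were left out. Group means were fitted to all 9 arrays with limma 3.58.1 in R 4.3.3 (lmFit, eBayes with a trend), two-sided, Benjamini-Hochberg adjusted over 11163 genes. The extract fit was also run on simulated arrays with independent normal noise. That simulation had no shared values and no dim filter, so it does not test how these affect the real data. Errors after ± are limma's SE. Python 3.11.15 and matplotlib 3.10.9 made the motif counts and figures. Promoter sequences are RefSeq's. Genes and lists were chosen with earlier results of these data known. By rule, values of every array were given for metal genes called with a log2 difference of 0.5 or more and for MTF1. Those of the other called genes, HEPH and HFE were added afterwards. From each list the 3 genes with the smallest F-test p are named, with HMOX1, MT1G and MT2A.

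Alternatives were cyclic loess, median centring, the mean of a gene's rows, no dim filter, the dimmer 50% left out, no variance trend, the 6 arrays compared, all rows tested, replicate number as a block, and each array left out. No label used here says whether replicate numbers pair the samples, and the main fit did not pair them. Of 9 same-number pairs of arrays 3 had deviations correlated above 0.1 (range -0.22 to 0.24). Pairs with different numbers ranged from -0.355 to 0.28. Such correlations, with 3 arrays in a group, cannot exclude pairing. No pair of arrays was identical (0 pairs), and arrays of a group correlated at 0.991 or above.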

Additional observations from a re-analysis of the deposited data

How the results depend on the processing

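Of 15 called results of the metal handling genes, 9 were called in every alternative run, 6 lost the call at least once and 0 changed sign. These include STEAP1, called against untreated with each treatment in all 17 of its alternatives. It had to differ once it passed the filter, so its steady calls describe it rather than support anything. The higher counts of metal handling genes against untreated given below also include it. Of 27 that were not called, 6 gained a call in some alternative and 9 changed sign at least once. The number of arrays and, for STEAP1 and MT1H, signal under the dim limit in some groups limit the precision. All single values below are log2 differences, and the cause of these moves was not tested.

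Counts of called metal handling genes moved as follows when 1 array was left out. With the extract the higher count ran from 4 to 5 (5 with all arrays) and the lower count from 2 to 4 (2 with all arrays, 4 without untreated replicate 2). With carnosic acid the higher count was 3 throughout, and the lower count, 2 with all arrays, ran from 0 to 1. It was 1 under cyclic loess, median centring, no dim filter, the dimmer 50% left out, no variance trend, the 6 arrays compared and the replicate block, and 0 with all rows tested. Between the treatments the higher count, 2, ran from 0 to 3, and was 4 under cyclic loess, 1 with no dim filter or no variance trend and 0 with all rows. The lower count, 1, ran from 0 to 1, and was 2 under cyclic loess or with the dimmer 50% left out and 0 with all rows. Over the 6 linked lists, leaving out 1 array gave 19 to 24 higher (24) and 6 to 9 lower (8) with the extract, 7 to 14 higher (14) and 1 to 5 lower (4) with carnosic acid, and 12 higher (12) and 1 to 4 lower (3) between the treatments. With carnosic acid the lists had 9 higher in the 6 arrays compared and 7 lower under cyclic loess. The higher counts of the lists with the extract, against untreated and against carnosic acid, include MT1H.

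With replicate number as a block, 4 metal handling genes were higher and 2 lower with the extract, 3 higher and 1 lower with carnosic acid, and 2 higher and 1 lower between the treatments. The block gave adjusted p = 0.0535 for CCS with the extract and, with carnosic acid, 0.051 for STEAP4, 0.0503 for AOC1 and 0.0604 for MCOLN1 by limma, all lost calls, and 0.0399 for CNNM3, a gained one. No other named gene changed its call under the block.

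Sign changes were all in results that were not called. Beside each, "lowest" or "highest" gives the other end of the range over arrays left out. With the extract they were PCBP2 under median centring (0.0282) and without untreated replicate 3 (0.0403) or extract replicate 3 (0.093, lowest -0.0623), TFR2 under cyclic loess (0.0225), median centring (0.00284) and without extract replicate 1 (0.00367, lowest -0.0456), and ATOX1 without extract replicate 2 (-0.0202, highest 0.128). With carnosic acid they were ATOX1 under median centring (0.0107) and without carnosic acid replicate 1 (0.0219, lowest -0.0536), HEPH (0.133, lowest -0.157) and HFE (0.0246, lowest -0.149) without untreated replicate 1, HSPA9 under median centring (0.03) and without carnosic acid replicate 2 (0.0139, lowest -0.0248), ISCU under cyclic loess (-0.000751), MT1H without untreated replicate 2 (0.0518) or carnosic acid replicate 3 (0.0099, lowest -0.225), and MT1X without untreated replicate 1 (-0.00256, highest 0.2). Between the treatments they were COX17 (0.0313, lowest -0.102) and CYBRD1 (-0.0408, highest 0.216) without carnosic acid replicate 3, PCBP2 without extract replicate 3 (0.00413, lowest -0.153), BOLA3 without extract replicate 3 (-0.0191) or carnosic acid replicate 1 (-0.0527, highest 0.064), and FECH under median centring (-0.0051) and without extract replicate 2 (-0.0341) or carnosic acid replicate 2 (-0.0159) or 3 (-0.0236, highest 0.0527).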
